A study of Xenopus tropicalis with 44 samples.

Results

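The genes that write, remove and read DNA methylation were followed through early development of the frog Xenopus tropicalis, in RNA of whole embryos. The 9 genes were taken by name from a table of 28778 genes, and all 9 were present: the methyltransferases dnmt1 and dnmt3a with the maintenance cofactor uhrf1, the demethylation genes tet2, tet3 and tdg, and the readers mbd2, mbd3 and zbtb33. All 9 were among the 16064 genes with enough counts to be tested. Of these, tet2 passed that filter through its counts at stage 13 and mbd2 through at most 18 counts in a library, the highest being at WT stage 7, with 168 counts over all 44 libraries. Comparisons of tet2 with stage 13 and of mbd2 with WT stage 7 are therefore given as counts and ratios with no p. Where these genes are among the members called there, their call supports nothing. The intervals of those ratios cover counting error only and are not a test, since these groups helped the genes to pass. OTX1 MO stage 7, with 20 counts of mbd2, was the next highest group, and nothing is read from mbd2 there either.

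The series holds 44 mRNA-seq libraries in 22 groups of 2 replicates. Wild-type (WT) embryos had no treatment and were collected at stages 3, 4, 5, 6, 7, 8, 9, 10 and 13, where stages 3 to 5 are the 4-, 8- and 16-cell embryos by the titles. E2F1 MO embryos were injected with a morpholino, a synthetic antisense oligomer, against the cell cycle transcription factor E2f1 (stages 3 to 8). E2F1 rescue embryos received that morpholino with E2F1 mRNA (stages 6 to 8), OTX1 MO embryos a morpholino against the homeodomain factor Otx1 (stages 7 and 8), and double MO embryos both morpholinos (stages 7 and 8). No group received a control morpholino, so injection and morpholino cannot be told apart. Whether replicates are separate clutches is not labelled, so the p-values rest on a spread between libraries that could be technical. In RNA of whole embryos, fewer cells of a type and less RNA per cell cannot be told apart.

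In vertebrates, methyl groups on the cytosine of CpG dinucleotides are copied onto new DNA strands after replication by Dnmt1, which is brought to hemimethylated sites by Uhrf1, while Dnmt3 enzymes methylate DNA de novo. Tet enzymes oxidize methylcytosine, and Tdg, a DNA glycosylase, cuts out the most oxidized forms for base excision repair. Mbd2 binds methylated CpG, Mbd3 is a subunit of the NuRD chromatin remodelling and deacetylase complex, and Zbtb33 (Kaiso) is a zinc finger repressor with affinity for methylated DNA. In Xenopus, egg DNA is heavily methylated, the early embryo divides on RNA stored by the mother, and zygotic transcription starts in the blastula. Maternal Dnmt1 is known in Xenopus for holding back early transcription.

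Total counts per library ran from 9266510 to 37174300, and edgeR's common biological coefficient of variation was 6.11%. Replicates differed beyond sampling noise in every group, with a chi-square per gene of 1.40 to 14.3 in 21 groups and 32.9 in rescue at stage 8. By the correlation of log2 CPM the replicates of WT stage 10 were the least alike (0.983). Levels are CPM, the usual read counts scaled to library size, here after TMM scaling, given as mean ± SD (n = 2), and compare shares of the sequenced mRNA, not molecules per embryo. Only polyadenylated RNA was sequenced, so the amount of an RNA and its share with a poly(A) tail cannot be told apart. Levels of different genes are compared only per kilobase of gene length (RPKM). A gene was called changed at an edgeR quasi-likelihood adjusted p under 0.05 (Benjamini-Hochberg over the 16064 genes). Background below means the share of those genes called in the same comparison. Some alternatives below fit only the groups compared, with 2 libraries each. Such a fit leaves few degrees of freedom for the spread, so its p-values are given only as a description. The summed level of 7 blastula zygotic genes fixed as stage markers was 0.935 CPM in WT at stage 7, 54.9 at stage 8 and 229 at stage 9. In E2F1 MO embryos the sum reached 33.4 CPM (stage 7) and 41.4 CPM (stage 8). In the same order it was 0.0193 and 3.93 in rescue, 3.28 and 16.4 in OTX1 MO, and 2.28 and 9.82 in double MO. The injected groups differed from WT of the same stage in this marker sum too, and its part in the results at stages 7 and 8 was not tested. In the table's header the columns of WT stages 7 and 8, OTX1 MO and double MO are spelled alike and those of the other stages, E2F1 MO and rescue otherwise. What the spelling marks is not given. At stages 7 and 8 it and the treatment cannot be told apart in any comparison of E2F1 MO or rescue with WT, OTX1 MO or double MO. The same holds for the interaction of the morpholinos and for the E2F1 MO effect at stage 7 minus that at stage 6. In WT stage 7 against 6 and 9 against 8 the spelling and the stage cannot be told apart. Markers of blood, follicle cells and liver summed to group means of at most 1.74, 1.36 and 3.87 CPM.

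RNA of dnmt1 was the most counted of all genes in the cleavage embryo and then fell at almost every step. At stage 3 its 2 WT libraries stood at 5873 and 6353 CPM, 0.462 and 0.490% of all counts. By counts, which favour long genes, it ranked first of all genes in both, and per kilobase it ranked 29 and 25. By counts it remained at rank 1 in both libraries of WT stages 4 and 5 (5642 and 5595 CPM, then 4117 and 4125). Per kilobase it ranked 25 in both libraries of stage 4, and 29 and 27 at stage 5. At stage 6 it held 2889.8 and 2873 CPM, at stage 7 it held 1649 and 1669.6, and at stage 8 it held 713 and 708. By stage 9 the libraries were at 589 and 581 CPM, by stage 10 at 131 and 174, and by stage 13 at 122 and 139. No library of a stage up to 10 overlapped one of the stage before it. Rank by counts had fallen to 80 at stage 8 and to 2205 and 2002 at stage 13. Per kilobase the ranks were 316 and 319 at stage 8 and 3496 and 3274 at stage 13.

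From stage 3 to stage 9 dnmt1 fell by 3.38 on the log2 scale (SE 0.09, adjusted p = 6.9e-24), while the median of all tested genes was 0.22. The steepest single steps were stage 10 against 9 (-1.95, adjusted p = 5.2e-18), stage 8 against 7 (-1.22, adjusted p = 6.6e-13) and stage 7 against 6 (-0.80, adjusted p = 3.8e-09). The first step, stage 4 against 3, was not called (-0.12, adjusted p = 0.43). The step from stage 8 to 9 (-0.28, adjusted p = 0.013) was lost without any single one of its 4 libraries (adjusted p of 0.056 to 0.079). The step from stage 10 to 13 (-0.21, adjusted p = 0.035) came from groups that overlapped. It was lost without WT stage 10 replicate 2 (-0.0014, adjusted p = 1.0), without WT stage 13 replicate 1 (-0.10, adjusted p = 0.42), and with RLE factors (-0.02, adjusted p = 0.86).

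The partner gene uhrf1 fell more slowly over cleavage and blastula and most at the end of the course. It stood at 1520.1 and 1653 CPM at stage 3, at 943 and 959 at stage 6, at 622 and 630.5 at stage 7, and at 599 in both libraries at stage 8. Stages 9 and 10 held 549 and 556, then 374 and 389 CPM, and stage 13 held 76.8 and 70.5. Groups of neighbouring stages did not overlap. Over stages 3 to 9 the log2 change was -1.52 (adjusted p = 1.7e-26), and from stage 10 to 13 it was -2.38 (adjusted p = 8.7e-32). Stages 8 against 7 (-0.06, adjusted p = 0.36) and 9 against 8 (-0.12, adjusted p = 0.12) were not called. The second was called with the groups compared fitted alone (adjusted p = 0.011). Small early steps depended on single libraries. Stage 4 against 3 (-0.22, adjusted p = 0.0072) was lost without WT stage 3 replicate 2 or either stage 4 library (adjusted p of 0.24, 0.067 and 0.073) and with total counts alone (0.15), and stage 6 against 5 (-0.20, adjusted p = 0.013) without WT stage 5 replicate 1 or either stage 6 library (adjusted p of 0.21, 0.10 and 0.059) and with total counts alone (0.20).

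The ratio of RNA of the maintenance enzyme gene to RNA of its recruiter gene fell below 1 in WT at stage 8, with protein not measured. Per length, the ratio of dnmt1 to uhrf1 was 2.93 ± 0.0113 at stage 3, 2.01 ± 0.000612 at stage 7, 0.901 ± 0.00423 at stage 8 and 0.302 ± 0.0524 at stage 10. Stage 13 had a ratio of 1.35 ± 0.208. Across the means of the 22 groups the log2 levels of the pair had a Pearson correlation of 0.90 and a Spearman correlation of 0.96, over groups that share the developmental course.

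RNA of the de novo methyltransferase gene dnmt3a was scarce up to stage 10. In WT embryos it lay between 2.28 and 3.36 CPM at stages 3 to 10, on 67 to 212 counts per group. At stage 13 its libraries held 28.1 and 20.9 CPM, above both libraries of every earlier stage. The change from stage 10 was 3.07 on the log2 scale (SE 0.28, adjusted p = 4e-13), and it was the only step between neighbouring WT stages called for dnmt3a. No other member of the Dnmt3 group was matched by name, so the level of de novo enzymes as a whole was not analysed here.

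Of the demethylation genes, tet3 was present at stages 3 to 6, lower at stages 7 to 9 and highest at stage 13. It stood at 14.8 and 21.5 CPM at stage 3, at 24.3 and 24.0 at stage 5 and at 15.0 and 23.8 at stage 6. At stage 7 it dropped to 2.52 and 3.41 CPM, below every earlier library, a log2 change of -2.71 (SE 0.28, adjusted p = 2.1e-08). It then held 6.69 and 5.02 CPM at stage 8, 5.59 and 4.00 at stage 9, then 10.8 and 12.5 at stage 10. By stage 13 both libraries were far higher, at 303 and 333 CPM. The rises at stage 10 against 9 (1.29, adjusted p = 0.0019) and at stage 13 against 10 (4.78, adjusted p = 1.3e-14) were called. The rise from stage 7 to 8 (0.99, adjusted p = 0.021) was lost without WT stage 7 replicate 1 (adjusted p = 0.14) or WT stage 8 replicate 1 (adjusted p = 0.22).

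RNA of tet2 was at or near the limit of detection until stage 10. The 8 WT groups up to stage 10 held 0 to 4 counts each, and stage 8 held 0 counts, which allows up to 0.0838 CPM over the group (floor of 3 counts, counting error only). At stage 13 the libraries held 353 and 440 counts, or 36.6 and 34.1 CPM. Against the 3 counts of stage 10 the ratio was 271 (95% counting interval 92.5 to 1319).

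The glycosylase gene tdg was low up to stage 9, with a small rise, and then rose in a pair of large steps. Its WT groups lay between 8.87 ± 0.615 CPM at stage 3 and 14.5 ± 1.43 at stage 9. Stage 10 held 125 and 135 CPM and stage 13 held 728 and 833, each above all libraries before it. The log2 changes were 3.15 for stage 10 against 9 (SE 0.11, adjusted p = 1.9e-27) and 2.59 for stage 13 against 10 (adjusted p = 5.2e-27). Stage 9 against 8 was not called, but was with total counts alone (adjusted p = 0.033), RLE factors (0.031) or the replicate block (0.036). It was called too with DESeq2 (0.029) and with the groups compared fitted alone (0.041). The smaller rise from stage 3 to 9 was called (0.72, adjusted p = 6.7e-06). That from stage 6 to 7 (0.32, adjusted p = 0.021) was lost without WT stage 6 replicate 1 (adjusted p = 0.29) or either stage 7 library (adjusted p of 0.062 and 0.071).

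Of the readers, mbd3 and zbtb33 changed in small steps. NuRD subunit mbd3 ranged 2.30-fold over the 22 groups, between 112 and 258 CPM. In WT it was at 133 and 134 CPM at stage 3, 165 and 174 at stage 6, 107 and 119.9 at stage 8, then 205 and 176 at stage 10. Its WT maximum came last, with 253 and 262 CPM (stage 13). It fell at stages 7 (-0.31, adjusted p = 0.00012) and 8 (-0.27, adjusted p = 0.001) and rose at stages 10 (0.61, adjusted p = 1.7e-10) and 13 (0.43, adjusted p = 3.1e-07). The fall at stage 8 was lost without WT stage 8 replicate 1 (-0.19, adjusted p = 0.077). From stage 3 to 9 its direction depended on the scaling, with a log2 change of -0.10 (adjusted p = 0.20) that became 0.46 (adjusted p = 8.1e-08) with total counts alone, a scaling that also moved the median of all genes from 0.22 to 0.78.

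Kaiso RNA rose at 4 of the 8 steps between neighbouring WT stages, in small steps. Levels of zbtb33 were 32.2 ± 3.88 CPM at stage 3, 26.4 and 26.3 at stage 6, 35.3 and 34.5 at stage 7, then 43.4 and 46.4 at stage 8. The last stage held 58.2 and 66.8 CPM. A fall at stage 5 against 4 was not called in the main fit. It was called with RLE factors (-0.25, adjusted p = 0.036), DESeq2 (-0.25, 0.028) and the groups compared fitted alone (-0.21, 0.045). The rises at stages 7 (0.40, adjusted p = 0.0002), 8 (0.36, adjusted p = 0.00059) and 13 (0.39, adjusted p = 0.0002) were called in each case with no overlap of libraries. With total counts alone the rise at stage 13 was 0.11 and not called (adjusted p = 0.30). The rise at stage 10 (0.26, adjusted p = 0.014) was lost without WT stage 9 replicate 1 (adjusted p = 0.062) or WT stage 10 replicate 2 (adjusted p = 0.11) with total counts alone (0.02, adjusted p = 0.91), with no filter (0.057) and with the groups compared fitted alone (0.14). The rise from stage 3 to 9 (0.31, adjusted p = 0.0026) was lost without WT stage 3 replicate 2 (0.20, adjusted p = 0.11).

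The methyl-CpG binding gene mbd2 was barely detected. No WT group except stage 7 held more than 7 counts, while stage 7 held 12 and 18, or 0.351 and 0.524 CPM. Its counts of 30 at stage 7 and 3 at stage 8 corresponded to a ratio of 5.23 for stage 7 over stage 8 (95% counting interval 1.63 to 26.8).

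**Figure D1:**
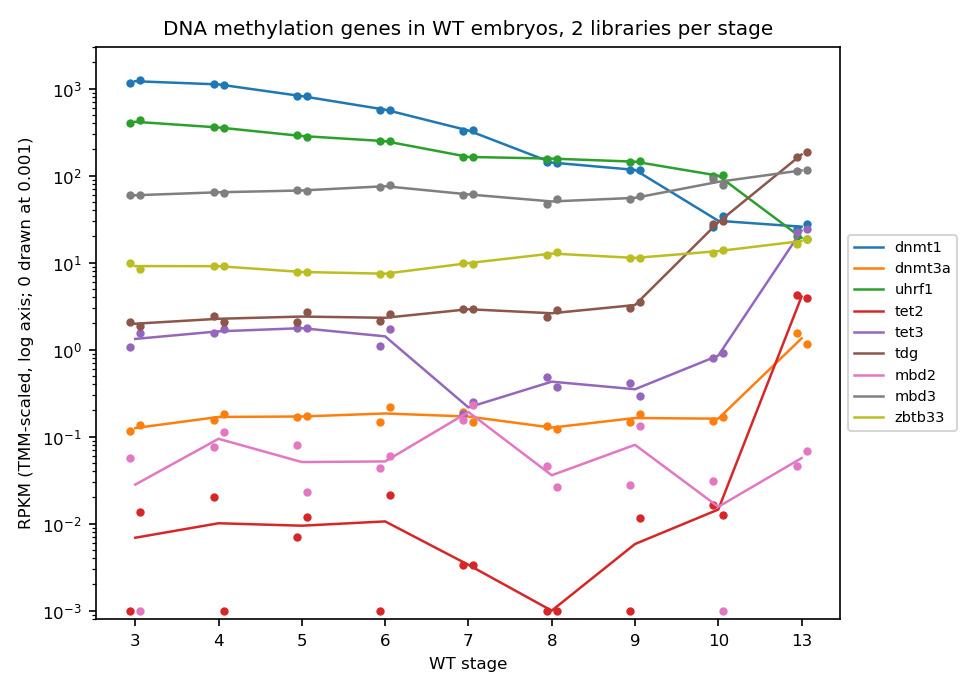
Level of each gene per length (RPKM, log axis, with 0 drawn at 0.001) in WT embryos by stage; points are libraries, lines join means of 2, and stages are evenly spaced. The lines of dnmt1 and uhrf1 cross between stages 7 and 8 and again after stage 10, and those of tdg, tet3 and tet2 climb after stage 9.

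Set in order of RPKM, the cleavage embryo was dominated by maintenance genes and the neurula by tdg. At stage 3 the order was dnmt1 (1213 ± 67.3 RPKM), uhrf1 (414 ± 24.6), mbd3 (59.4 ± 0.0903), zbtb33 (9.11), tdg (1.98 ± 0.138), tet3 (1.33 ± 0.344), dnmt3a (0.125 ± 0.0130), mbd2 and tet2. Of these neighbours only mbd2 and tet2 overlapped within their spread. At stage 13 tdg led with 175 ± 16.5 RPKM, followed by mbd3 (115 ± 2.69), dnmt1 (25.8 ± 2.44), tet3 (23.3 ± 1.56), uhrf1 (19.2 ± 1.16), zbtb33 (17.7 ± 1.71), tet2 (4.07 ± 0.199), dnmt3a (1.34 ± 0.280) and mbd2 (0.0567 ± 0.0160). There dnmt1 and tet3 lay within their spread of each other, as did uhrf1 and zbtb33. The ratio of tdg to dnmt1 went from 0.00164 ± 0.000205 at stage 3 to 6.76 ± 0.00300 at stage 13.

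Read against the background, the share of the 9 members called in WT was above the share of all genes at 6 of the 8 steps between neighbouring stages and below it at the other two, in each case by fewer than 2 members, and nothing is read from it about the members. Between neighbouring stages 1 of 9 was called for stage 4 against 3 (background 8.81%), 2 for 5 against 4 (27.3%), 2 for 6 against 5 (11.2%), 6 for 7 against 6 (46.9%) and 5 for 8 against 7 (44.1%). Later, 1 was called for stage 9 against 8 (24.5%), 6 for 10 against 9 (63.2%) and 8 for 13 against 10 (76.9%), and 5 for stage 9 against stage 3 (71.2%). At the last step 6 members rose, tet2 among them, and 2, dnmt1 and uhrf1, fell.

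Other genes of the pathway, in lists chosen with earlier results of these data known, split in both directions over stages 3 to 9 (background 71.2%). Of 7 tested genes listed as maintenance cofactors 3 rose and 2 fell. The list held uhrf1bp1, a gene named for binding Uhrf1, whose part in maintenance was not tested. The replication clamp gene pcna went from 14.9 ± 2.80 to 132 ± 3.51 CPM (log2 change 3.15, adjusted p = 1.2e-20), while hells, a remodeller needed for methylation, fell from 2313 ± 94.2 to 757 ± 30.7 (-1.61, adjusted p = 8.1e-29). Of 8 tested genes that supply the methyl donor 6 fell and 1 rose. The list median was -0.79 against 0.22 for all genes. The gene that rose was ahcy, which clears the methylation by-product S-adenosylhomocysteine (7.09 ± 1.14 to 75.8 ± 0.589 CPM, 3.42, adjusted p = 3.7e-27), and mat2b was among those that fell (-2.15).

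Of 17 tested genes of demethylation and base excision 7 rose and 6 fell, with a list median of 0.62. The oxidized-base glycosylase gene neil3 went from 195 ± 2.48 CPM at stage 3 to 0.0571 ± 0.00908 at stage 9 (adjusted p = 1e-28), and gadd45g went from 0 counts to 6.81 ± 1.11 CPM. Of 11 other readers 4 rose and 6 fell, with mbd4, a glycosylase with a methyl-CpG binding domain, down from 125 ± 5.07 to 33.6 ± 1.94 CPM. The gene mbd4 is in the demethylation list as well, and is counted in both lists here and below. NuRD partners were evenly split at 5 and 5 of 11, with chd3 up 3.08 and the deacetylase gene hdac2 down 2.37 on the log2 scale. From stage 10 to 13 (background 76.9%), 3 of the 7 cofactors rose and 4 fell. At that step 2 of 8 donor genes rose and 6 fell, 9 of 17 demethylation genes rose and 4 fell, 6 of 11 readers rose and 2 fell, and 7 of 11 NuRD partners rose and 1 fell.

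The E2F1 morpholino was compared with WT at each stage. During cleavage few of the methylation genes were called. At stages 4, 5 and 6 no member was called (backgrounds of 3.13, 3.24 and 1.95%), none had an unadjusted edgeR p under 0.05, and DESeq2 called 0 as well. Levels of dnmt1 at stage 6, for example, were 2613 and 2665 CPM against 2889.8 and 2873 in WT (-0.13, adjusted p = 0.63), and those of tet3 averaged 23.5 CPM against 19.4. At stage 4, dnmt1 was called with no filter (-0.16, adjusted p = 0.049) and with the groups compared fitted alone (-0.15, adjusted p = 1.4e-06). In the same settings tet3 was called at stage 3 (0.52 and 0.56, adjusted p of 0.001 and 0.00063). In the main fit, 2 of 9 were called at stage 3 (background 7.55%). They were dnmt3a, with 4.74 and 4.61 CPM against 2.12 and 2.45 (1.03, adjusted p = 0.029), and uhrf1, with 1342 and 1460.2 against 1520.1 and 1653 (-0.18, adjusted p = 0.031). Neither call was stable. The dnmt3a call was lost without any single one of the 4 libraries (adjusted p of 0.075 to 0.19), and the uhrf1 call without WT stage 3 replicate 2 (0.37) or E2F1 MO stage 3 replicate 1 (0.45) with total counts alone (0.13), and with the groups compared fitted alone (0.16).

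At stages 7 and 8 members were called between E2F1 MO embryos and WT over a high background, and nothing is read from their number. At stage 7, 6 of 9 were called (background 47.2%), 5 lower, with mbd2 among them, and mbd3 higher. At stage 8, 5 were called (background 49.8%), with dnmt1 and mbd3 higher and tet3, tdg and zbtb33 lower.

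RNA of dnmt1 changed sides between these stages. E2F1 MO libraries held 924 and 892 CPM at stage 7, below the 1649 and 1669.6 of WT (-0.87, SE 0.08, adjusted p = 5.7e-10), and 906 and 907 CPM at stage 8, above the 713 and 708 of WT (0.35, adjusted p = 0.00077). The E2F1 MO effect at stage 8 minus that at stage 7 was 1.22 (SE 0.12, adjusted p = 1.2e-09), and at stage 7 minus that at stage 6 it was -0.74 (adjusted p = 1.1e-05). The mean levels of 908 and 906 CPM in E2F1 MO embryos lay between WT stages 7 and 8. The marker sum of 33.4 and 41.4 CPM also lay between those WT stages, and its part in the dnmt1 result was not tested. Its partner uhrf1 held 658 and 654 CPM against 622 and 630.5 at stage 7, and 600.5 and 591 against 599 and 599 at stage 8. It was not called (0.07 and -0.01, adjusted p of 0.33 and 0.96), but was at stage 7 with the groups compared fitted alone (0.06, adjusted p = 0.0056).

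Among the erasers, tdg was below WT at both stages. It held 6.72 and 5.99 CPM against 13.0 in both WT libraries at stage 7 (-1.03, SE 0.12, adjusted p = 1e-09), and 7.65 and 7.75 against 10.7 and 12.7 at stage 8 (-0.60, adjusted p = 0.00012). These 4 libraries were the lowest of the E2F1 MO series and below every WT library of stages 3 to 13. For tet3 the libraries held 1.77 and 2.04 CPM against 2.52 and 3.41 at stage 7 (-0.64, adjusted p = 0.18, but 0.0028 with no filter and 0.0026 with the groups compared fitted alone) and 2.95 and 2.05 against 6.69 and 5.02 at stage 8. Only the latter was called (-1.24, adjusted p = 0.0054), and it was lost without WT stage 8 replicate 1 (adjusted p = 0.091) or E2F1 MO stage 8 replicate 2 (adjusted p = 0.059).

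The readers mbd3 and zbtb33 moved in opposite directions. Levels of mbd3 were 178 and 189.6 CPM against 136 and 137 at stage 7 (0.43, adjusted p = 6.8e-07), and 169 in both libraries against 107 and 119.9 at stage 8 (0.58, adjusted p = 1.6e-09). They stood near the WT level of stage 6, 169.6 ± 6.97 CPM. Levels of zbtb33 were 23.6 and 26.5 CPM against 35.3 and 34.5 at stage 7 (-0.48, adjusted p = 1.2e-05), and 26.2 and 26.8 against 43.4 and 46.4 at stage 8 (-0.76, adjusted p = 1.5e-09). The rises of zbtb33 seen in WT at stages 7 and 8 thus had no counterpart in these libraries, whose levels were near those of stage 6 (26.0 and 29.6 CPM). For dnmt3a the stage 7 call (1.71 and 2.21 against 3.51 and 2.68 CPM, -0.66, adjusted p = 0.041) was lost without WT stage 7 replicate 1 (adjusted p = 0.30), without E2F1 MO stage 7 replicate 1 (adjusted p = 0.28), and with total counts alone (adjusted p = 0.051). The lower mbd2 of E2F1 MO at stage 7 rested on 5 counts against 30, a ratio of WT over E2F1 MO of 5.63 (95% counting interval 2.16 to 18.6). At stage 8 E2F1 MO held 9 counts and WT 3. OTX1 MO held 20 and 16 counts at stages 7 and 8, and double MO 15 and 19.

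**Figure D2:**
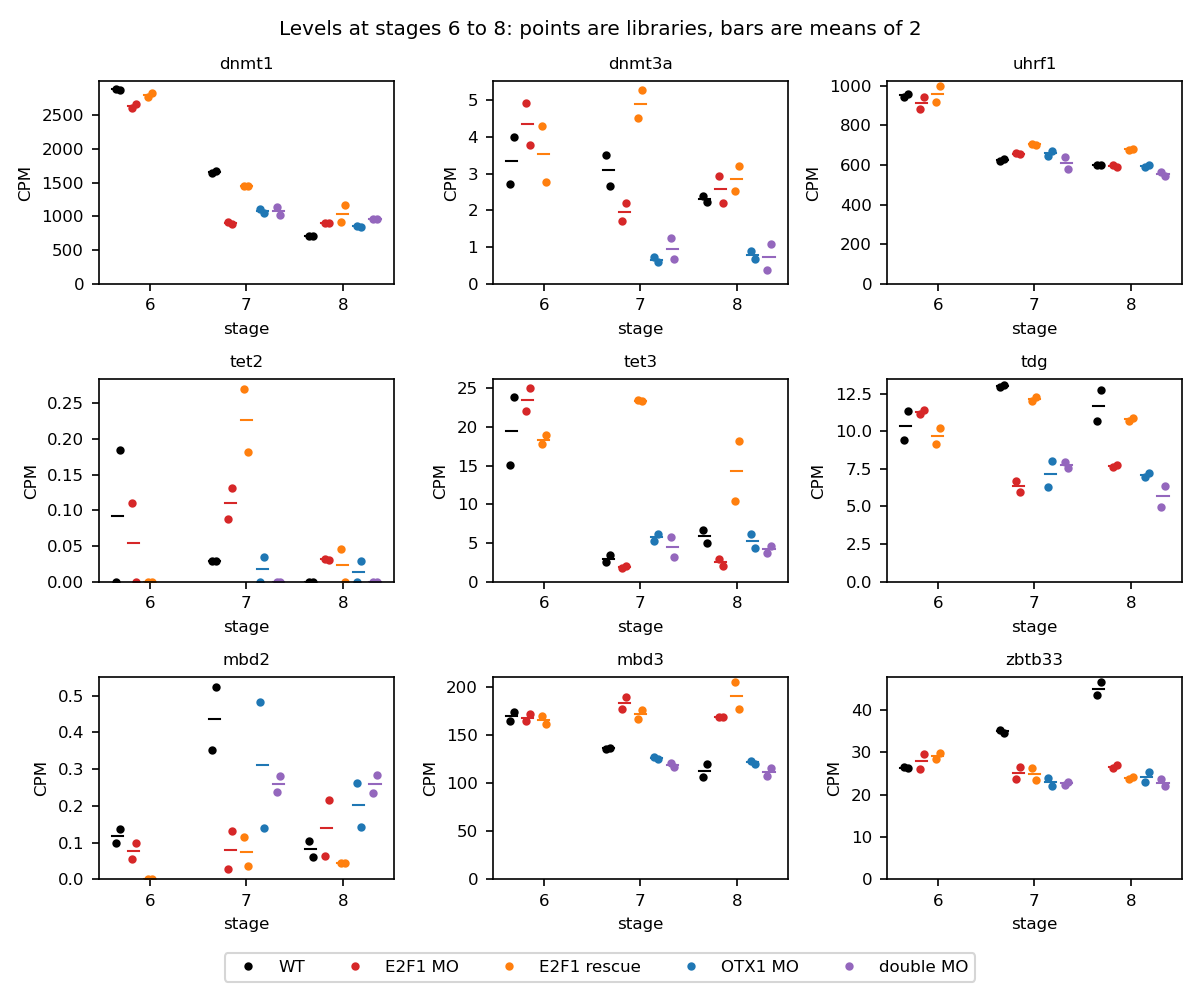
CPM of each gene (linear axes from 0) at stages 6, 7 and 8 in the groups of each stage; points are libraries and bars are means of 2. Levels of dnmt1 in all 4 injected groups lie below WT at stage 7 and above it at stage 8, and those of zbtb33 lie below WT at both.

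Embryos given E2F1 mRNA with the morpholino differed from WT in some members and from E2F1 MO embryos in others. The count of e2f1 itself, which includes injected RNA, came to 23889 CPM in rescue at stage 6, 32498 at stage 7 and 30065 at stage 8, with 471, 493 and 488 in WT. At stage 6 no member was called against WT (background 3.01%, 1 member at an unadjusted edgeR p under 0.05, 0 by DESeq2) or against E2F1 MO (background 0.131%, 0 at an unadjusted p under 0.05, 0 by DESeq2). Against WT, 6 of 9 were called at stage 7 (background 33.3%) and 5 at stage 8 (52.2%). Against E2F1 MO, 4 were called at stage 7 (43.4%) and 4 at stage 8 (39.9%), all of them higher in rescue.

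For tdg, rescue was above E2F1 MO and its difference from WT was small. Rescue libraries held 12.1 ± 0.173 CPM at stage 7 and 10.7 and 10.9 at stage 8, above E2F1 MO by 0.93 (adjusted p = 3.3e-08) and 0.49 (adjusted p = 0.0015) on the log2 scale. Against WT the differences were -0.10 (95% interval -0.33 to 0.13) and -0.11 (-0.37 to 0.15), which were not called (adjusted p of 0.54 and 0.49). RNA of dnmt1 was intermediate at stage 7 and not at stage 8. It held 1451 and 1448 CPM at stage 7, above E2F1 MO (0.67, adjusted p = 9.4e-08) and below WT by an amount that was not called (-0.20, adjusted p = 0.069) but was with total counts alone (adjusted p = 0.022), with no filter (0.00077) and with the groups compared fitted alone (1.3e-35). At stage 8 it held 920.3 and 1165 CPM, above WT (0.55, adjusted p = 1.9e-06) and not called against E2F1 MO (0.20, adjusted p = 0.052). Against E2F1 MO it was called without rescue stage 8 replicate 1 (0.36, adjusted p = 0.0005), with no filter (0.001) and with the replicate block (0.044). The calls of dnmt1, tet3, mbd3 and zbtb33 against WT at stage 8 kept their sign and their side of the threshold without either rescue library.

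RNA of tet3 was higher in rescue embryos than in WT and E2F1 MO at stages 7 and 8. Rescue libraries both held 23.4 CPM at stage 7, against 2.52 and 3.41 in WT and 1.77 and 2.04 in E2F1 MO. Rescue exceeded WT by 2.98 on the log2 scale (SE 0.27, adjusted p = 5.6e-09). It exceeded E2F1 MO by 3.62 (SE 0.30, adjusted p = 4.4e-10). At stage 8 the replicates were apart, at 10.4 and 18.1 CPM, and both lay above all WT and E2F1 MO libraries of that stage (1.28 and 2.52, adjusted p of 0.00068 and 3.8e-07). The stage 7 level was the one that WT held at stages 3 to 6. The marker sum was 0.0193 CPM in rescue embryos at stage 7 and 0.0493 CPM in WT at stage 6. Both sums were near the limit of detection. They came from replicate 1 alone (0.0386 and 0.0985 CPM), with 0 in replicate 2. The part of the marker sum in the tet3 result was not tested.

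Both zbtb33 and mbd3 differed from WT in rescue embryos too. In rescue embryos zbtb33 held 26.2 and 23.5 CPM at stage 7 and 23.7 and 24.0 at stage 8, below WT (-0.49 and -0.91, adjusted p of 2e-05 and 3.1e-11) and not called against E2F1 MO (-0.01 and -0.15, adjusted p of 0.97 and 0.19). Rescue levels of mbd3 were 167 and 176, then 206 and 177 CPM, above WT at both stages (0.33 and 0.76, adjusted p of 0.0001 and 1.7e-12). Set against E2F1 MO, mbd3 was called at stage 8 (0.18, adjusted p = 0.03), a call lost without rescue stage 8 replicate 1 (0.06, adjusted p = 0.58), without either E2F1 MO stage 8 library (adjusted p of 0.10 and 0.11), and with total counts alone, RLE factors, no filter or the groups compared fitted alone (adjusted p of 0.16, 0.055, 0.067 and 0.26). Slightly more uhrf1 RNA was found in rescue than in WT (0.17 at stage 7 and 0.18 at stage 8, adjusted p of 0.013 and 0.0046). The first was lost without either WT or either rescue library of stage 7 (adjusted p of 0.052 to 0.087), and the second with RLE factors or DESeq2 (adjusted p = 0.051 in both) and with the groups compared fitted alone (0.20). For dnmt3a, rescue stood at 4.51 and 5.27 CPM at stage 7, above E2F1 MO (1.33, adjusted p = 7e-05). Its call against WT (0.66, adjusted p = 0.038) was lost without WT stage 7 replicate 2 or either rescue library (adjusted p of 0.29, 0.063 and 0.23), and with total counts alone (0.058). For mbd2, rescue held 4 counts against 30 in WT at stage 7.

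RNA of dnmt3a was lower than in WT in both groups given the OTX1 morpholino. OTX1 MO libraries held 0.723 and 0.590 CPM at stage 7 and 0.907 and 0.682 at stage 8, against 3.51 and 2.68, then 2.38 and 2.24 in WT. Log2 changes were -2.22 (SE 0.32, adjusted p = 1.9e-07) and -1.52 (SE 0.34, adjusted p = 0.00018). In counts these were 41 and 62 per group against 212 and 83. Double MO embryos were low too, with 1.26 and 0.669 CPM at stage 7 and 0.377 and 1.08 at stage 8 (-1.67 and -1.74 against WT, adjusted p of 1.3e-05 and 4.3e-05). The stage 8 value rested on replicates that were apart, and was -1.10 when replicate 1 was left out (adjusted p = 0.013) and -2.60 when replicate 2 was (adjusted p = 2.4e-06). All 8 libraries given the OTX1 morpholino lay below all 36 others.

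In OTX1 MO and double MO embryos dnmt1, tdg and zbtb33 differed from WT in the same directions as in E2F1 MO embryos. OTX1 MO had 5 members called at stage 7 (background 49.2%) and 4 at stage 8 (54.6%), and double MO 5 (50.3%) and 4 (55.2%). All these comparisons and those of E2F1 MO and rescue share the same WT libraries. In OTX1 MO embryos dnmt1 held 1111 and 1053 CPM at stage 7 (-0.62, adjusted p = 3e-07) and 863 and 845 at stage 8 (0.26, adjusted p = 0.0078). In double MO embryos it held 1145 and 1020.1 CPM at stage 7 (-0.62, adjusted p = 3.1e-07) and 958 and 961 at stage 8 (0.43, adjusted p = 5.3e-05). The change of side between stages was called in each injected group in tests added after the levels had been seen, at 0.88 for OTX1 MO (adjusted p = 8.4e-07), 1.05 for double MO (4.3e-08) and 0.75 for rescue (8.9e-06). In those comparisons 1 member was called for OTX1 MO (background 31.8%), 2 for double MO (32.1%) and 4 for rescue (35.3%), and for E2F1 MO 2 were called at stage 8 minus 7 (39%) and 5 at stage 7 minus 6 (29.5%).

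Kaiso and Tdg RNA were below WT in OTX1 MO and double MO embryos too. For zbtb33 group means lay between 22.6 and 24.1 CPM, and every library was below all WT libraries of any stage (log2 changes of -0.60 and -0.90 in OTX1 MO and -0.62 and -0.97 in double MO at stages 7 and 8, adjusted p of 1.8e-07 or less). For tdg the libraries lay between 4.99 and 8.01 CPM (-0.87 and -0.72, then -0.75 and -1.05, adjusted p of 4.5e-06 or less). Levels of mbd3 were 128 and 125, then 124 and 120.3 CPM in OTX1 MO, and were not called (-0.11 and 0.11). Both were called with the groups compared fitted alone (adjusted p of 0.0086 and 0.049). The stage 8 change was 0.19 without WT stage 8 replicate 2. In double MO they were called at stage 7 (-0.19, adjusted p = 0.013), a call lost without WT stage 7 replicate 2 (adjusted p = 0.062) or double MO stage 7 replicate 2 (adjusted p = 0.098). For tet3, OTX1 MO embryos at stage 7 stood at 5.30 and 6.21 CPM, above WT (0.95, adjusted p = 0.014), and this was lost without WT stage 7 replicate 1 (adjusted p = 0.13) or OTX1 MO stage 7 replicate 2 (adjusted p = 0.086).

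**Figure D3:**
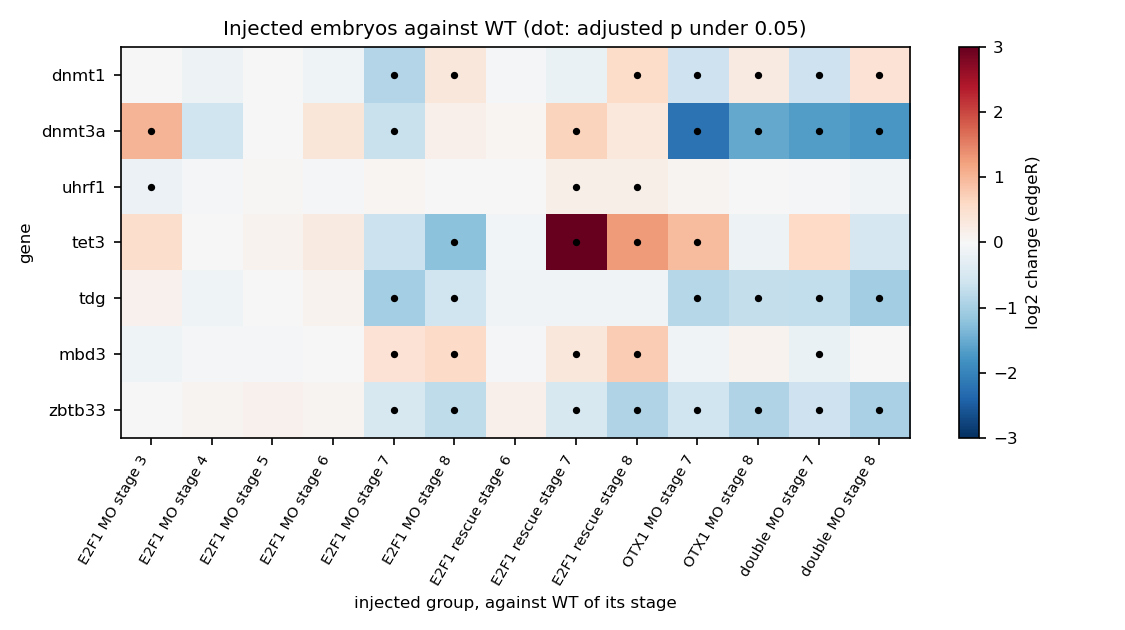
Log2 change of each member (rows; tet2 and mbd2 left out for their low counts) in each injected group against WT of its stage (columns), by colour from -3 to 3; a dot marks an adjusted p under 0.05. Columns of stages 4 to 6 hold no dot, the zbtb33 row is blue in all 8 columns of stages 7 and 8, and the strongest cells are tet3 in rescue at stage 7 (2.98) and dnmt3a in OTX1 MO at stage 7 (-2.22).

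Double MO against OTX1 MO had 0 of 9 members called at stages 7 and 8 (backgrounds 3.74 and 2.68%, 1 member at each stage at an unadjusted edgeR p under 0.05, 0 by DESeq2). For dnmt1 the log2 differences were 0.00 and 0.17 (adjusted p of 1.0 and 0.43), the second called with no filter (0.033) and with the groups compared fitted alone (7.3e-06). The 95% interval was -0.17 to 0.17 for the first. Double MO against E2F1 MO had 4 called at stage 7 (background 44.6%) and 4 at stage 8 (43.2%). Of these, mbd3 was lower in double MO at both stages (-0.62 and -0.60, adjusted p of 2.2e-10 and 6.6e-10), and so was dnmt3a (-1.01 and -1.89, adjusted p of 0.01 and 4.6e-06; the second was -1.25 and -2.75 without double MO stage 8 replicates 1 and 2). The dnmt3a call at stage 7 was lost without E2F1 MO stage 7 replicate 2 (adjusted p = 0.10) or double MO stage 7 replicate 2 (adjusted p = 0.20). Those of dnmt1 (0.25) and tet3 (1.24) at stage 7 were lost without double MO stage 7 replicate 1 (adjusted p of 0.19 and 0.18), the first also without E2F1 MO stage 7 replicate 2 (0.089) and the second without replicate 1 (0.057). At stage 8 the call of tdg (-0.45) was lost without double MO stage 8 replicate 1 (adjusted p = 0.18), and that of zbtb33 (-0.21, adjusted p = 0.045) without any single one of its 4 libraries (adjusted p of 0.055 to 0.25).

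Whether the morpholino effects add on the log2 scale was tested as an interaction, double minus both single effects. At stage 7, 5 members departed from adding (background 34.3%). For dnmt1 (0.87, SE 0.12, adjusted p = 7.3e-07) and tdg (1.15, adjusted p = 9.9e-07) each single morpholino went with a lower level and the pair with a mean level no lower than the single ones. For zbtb33 (0.46, adjusted p = 0.0035) the difference of double MO from WT (-0.62) was close to that of OTX1 MO (-0.60). For mbd3 (-0.51, adjusted p = 2.6e-05) the excess of E2F1 MO embryos was not found with both morpholinos. For dnmt3a the value was 1.21 (adjusted p = 0.043), which was lost without WT, E2F1 MO or double MO stage 7 replicate 1 or either OTX1 MO stage 7 library (adjusted p of 0.068 to 0.42), and with the replicate block (adjusted p = 0.051). At stage 8, 2 were called (background 35.9%), mbd3 (-0.71, adjusted p = 1e-07) and zbtb33 (0.69, adjusted p = 2.2e-05).

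Plotted against the marker sum over stages 6 to 8, dnmt1 fell in WT as the sum rose. OTX1 MO embryos at stage 8 had a sum of 16.4 CPM and 854 CPM of dnmt1. E2F1 MO embryos at stages 7 and 8 had sums of 33.4 and 41.4 CPM, and 908 and 906 CPM of dnmt1. These groups also differ in header spelling, and OTX1 MO was not tested against E2F1 MO. Rescue embryos at stage 7, with a sum of 0.0193 CPM, held 1449 CPM of dnmt1 against 2801 at stage 6, and 23.4 CPM of tet3 against 18.3. E2F1 MO embryos had the highest sum and the lowest dnmt1 of stage 7, and WT embryos those of stage 8. For zbtb33 the WT libraries of stages 7 and 8 lay above all injected libraries of those stages. Whether the sum accounts for any of these differences was not tested.

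**Figure D4:**
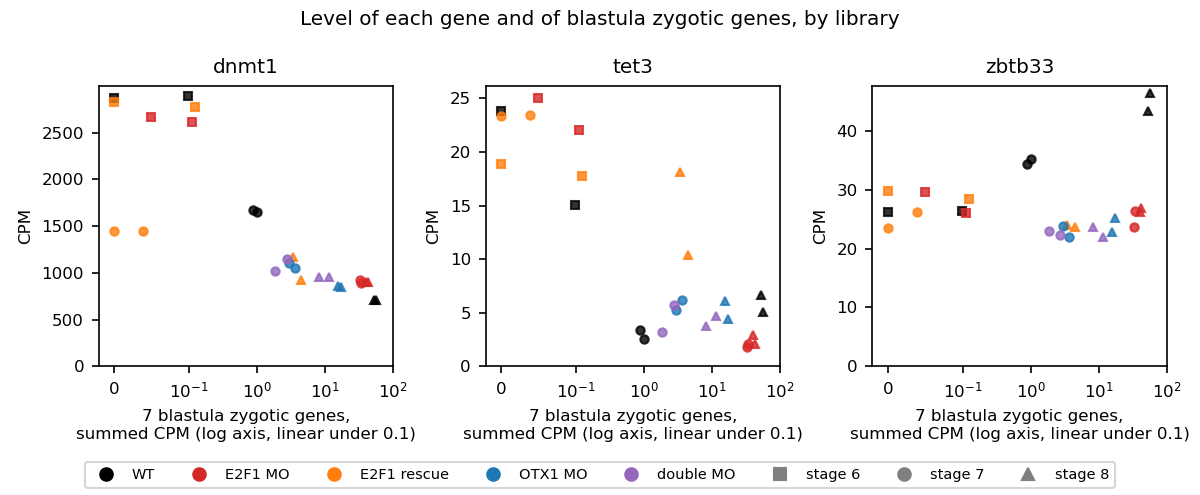
CPM of dnmt1, tet3 and zbtb33 (linear axes from 0) against the summed CPM of 7 blastula zygotic genes (log axis, linear under 0.1) in the 26 libraries of stages 6 to 8; colours mark groups and shapes stages. In WT, dnmt1 falls as the marker sum rises from stage 6 to stage 8, the rescue libraries of stage 7 sit high for tet3 at a sum near 0, and WT libraries of stages 7 and 8 sit highest for zbtb33.

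Pathway genes beyond the members also went both ways at stages 7 and 8. In E2F1 MO embryos against WT at stage 7 (background 47.2%), 2 of 7 maintenance cofactors were higher and 3 lower, 2 and 3 of 8 donor genes, 5 and 5 of 17 demethylation genes, 5 and 1 of 11 readers, and 3 and 5 of 11 NuRD partners. The clamp gene pcna stood at 31.9 ± 0.742 CPM against 74.1 ± 0.629 (-1.22, adjusted p = 8.6e-11). The histone binding NuRD gene rbbp7 was at 54.3 ± 0.159 against 128 ± 2.72 (-1.24, adjusted p = 3.1e-16), and gatad2a at 124 ± 0.486 against 61.6 ± 0.835 (1.01, adjusted p = 7e-18). RNA of neil3 was at 73.3 ± 1.66 CPM in E2F1 MO embryos at stage 7 and 80.9 ± 3.75 at stage 8, with 0 counts in the 4 WT libraries. At stage 8 (background 49.8%), 1 of 7 cofactors was higher and 5 lower, among them uhrf2, the paralogue of uhrf1, at 8.88 ± 1.21 against 77.9 ± 5.07 CPM (-3.13, adjusted p = 3.3e-26). At that stage 3 and 1 of 8 donor genes, 5 and 5 of 17 demethylation genes, 2 and 2 of 11 readers, and 2 and 2 of 11 NuRD partners were higher and lower. In double MO embryos neil3, pcna and uhrf2 were not among the 2 largest called changes of their lists at stage 7 or 8. That rank does not show whether they changed there, and nothing is read from it about them. In E2F1 MO embryos it left out pcna at stage 8 and uhrf2 at stage 7 too. For demethylation the 2 largest in double MO embryos were gadd45b (0.89) and parp1 (-0.83), then gadd45g (-2.37) and gadd45a (-1.58). In the cofactor list they were cdca7 (-1.18) and uhrf1bp1 (0.98), then cdca7 (-1.22) and uhrf1bp1 (0.88). RNA of uhrf1bp1 was also above WT in E2F1 MO embryos (1.84 at stage 7 and 1.08 at stage 8) and in OTX1 MO embryos at both stages. Whether uhrf1bp1 acts in methylation maintenance was not tested.

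In OTX1 MO embryos the counts of higher and lower genes at stage 7 (background 49.2%) were 2 and 3 of the cofactors, 2 and 4 of the donor genes, 3 and 5 of the demethylation genes, 6 and 1 of the readers and 3 and 2 of the NuRD partners. At stage 8 (54.6%) they were 1 and 4, 3 and 3, 6 and 4, 5 and 1, and 5 and 2 in the same order. Double MO embryos had 2 and 3, 3 and 5, 5 and 5, 6 and 2, and 3 and 2 at stage 7 (50.3%), and 1 and 4, 3 and 3, 6 and 5, 4 and 0, and 4 and 3 at stage 8 (55.2%). The cofactor gene cdca7, which works with hells, was at 14.1 ± 1.95 CPM in OTX1 MO and 12.6 ± 0.578 in double MO against 28.6 ± 0.616 in WT at stage 7 (-1.02 and -1.18, adjusted p of 1.3e-09 and 6.4e-11). Among readers cxxc1, which binds unmethylated CpG, was at 161 ± 2.78 CPM in OTX1 MO against 72.2 ± 0.0365 in WT at stage 7 (1.16, adjusted p = 9e-19).

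Genes with the most similar pattern over the 22 groups were named by the Pearson correlation of mean log2 CPM, among 9286 genes with a mean of at least 5 CPM, as a description. For dnmt1 they were ccdc61 (0.990), sdc1 (0.988) and mfsd14a (0.988). For uhrf1 they were slc15a4 (0.998), exoc5 (0.995) and ivns1abp (0.995), and for tdg leprotl1 (0.990), tuba1cl.3 (0.982) and ncoa5 (0.982). For tet3 the nearest were gin1 (0.957), fbn3 (0.936) and capsl (0.924), and for dnmt3a efcab1 (0.926), tmem183a (0.926) and ccng2 (0.915). For tet2 they were hand1 (0.975), gch1 (0.965) and phyhdla.3 (0.964), with Spearman correlations of 0.61, 0.61 and 0.64. The tet2 values follow from stage 13, which held 793 counts and let it pass, with at most 12 in any other group. Nothing is read from them. Among the readers, the nearest were ndufb6 (0.911), snrpe (0.905) and pdia3 (0.899) for mbd3, and kitlg (0.943), trank1 (0.929) and agrn (0.920) for zbtb33. For mbd2 they included hdac5 (0.689) and myo10 (0.640), on at most 30 counts per group, and nothing is read from them. With Spearman's measure only 5 of the 27 nearest names were among the nearest 3.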

How the data were processed

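Polyadenylated RNA of whole embryos was sequenced with a stranded kit, per the labels' protocols. Reads were trimmed with fastp, aligned with STAR 2.7.0e and counted per gene with featureCounts 2.0.1. These tools are named per the submitters' processing notes. No source used here gives the build, annotation or strand setting, so overlapping and antisense genes may share reads. The authors deposited raw counts per gene and a gene length in bases for 44 libraries. All columns were used.

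Counts of all 44 libraries were fitted with edgeR 4.0.16 (R 4.3.3, limma 3.58.1): filterByExpr with a minimum count of 10, TMM scaling, 1 mean per group, and a robust quasi-likelihood test with 22 residual degrees of freedom. It was tested on simulated data. DESeq2 1.42.0, RLE factors, total counts, no filter, a fit of the compared groups alone, a replicate block and leaving out each library were alternatives. Intervals are at 95% and, for low counts, cover counting error only, as does the floor of 3 counts. RPKM used the deposited length. Members and lists were chosen with earlier results of these data known. Genes named are the 9 members, the 3 most similar to each by Pearson correlation, and up to 3 called genes per pathway list in a WT comparison and up to 2 in a morpholino one, by size of change; some genes this rule names are not reported here. Promoters and sequences were not analysed here.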

Additional observations from a re-analysis of the deposited data

Results flagged for a closer look

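Whether an effect differed between stages, or departed from adding, was tested on the log2 scale with edgeR, and the values past an adjusted p of 0.05 are collected here. Double MO minus both single effects at stage 7 was 0.87 for dnmt1, 1.21 for dnmt3a, 1.15 for tdg, -0.51 for mbd3 and 0.46 for zbtb33. At stage 8 it was -0.71 for mbd3 and 0.69 for zbtb33.

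The E2F1 MO effect at stage 7 minus that at stage 6 was -0.74 for dnmt1, -1.03 for dnmt3a, -1.15 for tdg, 0.44 for mbd3 and -0.56 for zbtb33. The dnmt3a value was lost without replicate 1 of WT stage 6, WT stage 7, E2F1 MO stage 6 or E2F1 MO stage 7 (adjusted p of 0.16 to 0.19). At stage 8 minus stage 7 it was 1.22 for dnmt1 and 0.43 for tdg. The tdg value was lost without either WT stage 7 library, WT stage 8 replicate 1, E2F1 MO stage 7 replicate 2 or either E2F1 MO stage 8 library (adjusted p of 0.076 to 0.24).

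In the comparisons added after the levels had been seen, the rescue effect at stage 8 minus that at stage 7 was 0.75 for dnmt1, -1.70 for tet3, 0.43 for mbd3 and -0.42 for zbtb33, the last lost without rescue stage 7 replicate 1 (adjusted p = 0.063). The OTX1 MO effect differed by 0.88 for dnmt1. The double MO effect differed by 1.05 for dnmt1 and by -0.35 for zbtb33, the latter lost without replicate 2 of WT stage 7, WT stage 8, double MO stage 7 or double MO stage 8 (adjusted p of 0.071 to 0.11).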

How the results depend on the processing

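The share of all genes called ran from 0.131 to 76.9% over the comparisons tested. Nothing is read about the members from their number of calls, which takes in the tet2 and mbd2 calls that support nothing. Of 324 member changes tested, 115 were called. Of these, 31 were lost without some single library and 0 changed sign without one. With total counts alone the mbd3 change of WT stage 9 against 3 turned to 0.46, and 9 called changes were lost and 9 gained. RLE factors lost 4 and gained 5, DESeq2 5 and 10, no filter 5 and 16, the replicate block 1 and 4, and fitting the compared groups alone 5 and 37. Changes of sign among uncalled values are not counted. Nor are changes to which DESeq2 gave no adjusted p, so calls missing there for that reason are not among its losses.

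Members called for WT stage 9 against 8 numbered 2 with total counts, RLE factors, DESeq2 or the replicate block and 4 with the groups fitted alone, against 1. All genes called there numbered 3913, 3940, 3943, 3884 and 5204 in the same order, against 3931. For the OTX1 MO effect at stage 8 minus 7 the members called numbered 2 with total counts, RLE factors, no filter or the replicate block. They numbered 3 with DESeq2 and 4 with the groups alone, against 1. All genes called there numbered 5169, 5148, 5145, 5042, 5328 and 6805 in the same order, against 5110. With the groups alone the members called numbered 4 for WT stage 6 against 5, 1 for E2F1 MO at stage 4 and 2 for rescue against E2F1 MO at stage 8. They numbered 7 for double against E2F1 MO at stage 8 and 2 for double against OTX1 MO at stage 8. They numbered 5 for the stage 8 interaction and 7 for the E2F1 MO effect at stage 8 minus 7. All genes called numbered 3003, 2097, 3362, 9031, 1342, 7433 and 8710 in the same order, against 1795, 503, 6410, 6941, 431, 5771 and 6269. With no filter the members called numbered 1 for E2F1 MO at stage 4, 1 for double against OTX1 MO at stage 8 and 4 for the stage 8 interaction. All genes called there numbered 665, 590 and 5802. E2F1 MO at stage 3 had 1 member called with total counts or DESeq2, and 1184 and 1758 of all genes, against 1213. DESeq2 tested fewer genes and the fit with no filter more. Nothing is read about the members from these numbers or those below without single libraries. The cause was not tested.

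Leaving out each library gave 0 to 1 called for WT stage 4 against 3, 1 to 2 for stage 6 against 5, 2 to 4 for stage 8 against 7, and 0 to 1 for stage 9 against 8. It gave 0 to 1 for E2F1 MO at stage 3, 3 to 5 for rescue against WT at stage 7, and 2 to 3 for double against E2F1 MO at stages 7 and 8. The effects at stage 8 minus 7 ranged from 1 to 3 for E2F1 MO, 1 to 2 for OTX1 MO and 1 to 2 for double MO.

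No pairing by replicate number was found: deviations of same-numbered samples correlated between -0.039 and 0.041 over 29 comparisons. That check gave equal weight to all tested genes, those with low counts among them, so it cannot exclude pairing. Total counts alone moved the median of all genes most in WT stage 9 against 3 (0.22 to 0.78), with 8603 of 11787 calls higher against 6381 of 11436. Levels of tet2 and mbd2 are limited by depth.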
